A study of Homo sapiens with 6 samples.

Results

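The collagen chains were taken as every gene of the deposited table whose symbol is COL, a collagen number, A and a chain number, which gave 41 of 17039 genes. They comprised 9 chains of fibrillar collagens, 6 chains of the basement membrane collagen (type IV), 9 chains of fibril-associated collagens with interrupted triple helices (FACIT) and 17 chains of other types. The data are poly(A) RNA sequencing of 2 lines with 3 libraries each. MDA-MB-231 is a triple-negative breast cancer line of human origin, and 231-BR a derivative that seeks the brain when it spreads. Both lines were grown in DMEM with fetal bovine serum and penicillin-streptomycin. The 231-BR medium also held G418 and the MDA-MB-231 medium did not, the 231-BR cells were a gift of another laboratory whereas the MDA-MB-231 cells were bought, and an effect of either cannot be told apart from one of the line. In one label of the samples the number in the name of the line rises by 1 from replicate to replicate, and the libraries were grouped by their titles.

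Collagens are secreted proteins of 3 chains wound into a helix. Fibrillar collagens form the ropes of connective tissue, type IV forms the mesh of basement membranes, FACIT collagens sit on the surface of fibrils, and the remaining types make beaded filaments, anchoring fibrils, short networks or proteins held in the cell membrane. In tumours much of the fibrillar collagen is made by stromal cells, and the vessels of the brain are wrapped in basement membranes rich in type IV collagen.

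Expression was given as FPKM, fragments scaled to the length of the transcript and to the total of mapped fragments, with 2 decimals. Read counts were not used, so the sequencing depth behind the values is unknown. The summed FPKM was 465020 to 472007 in the 231-BR libraries and 486937 to 496420 in the MDA-MB-231 libraries. VIM was at 2537 to 2566 FPKM in 231-BR and 2273 to 2325 FPKM in MDA-MB-231 libraries, and CDH1 at 0.03 FPKM or less in all 6, as is known of this mesenchymal-like line. EPCAM had means of 8.70 and 5.06 FPKM, and CD44 was at 177 to 185 and 248 to 253 FPKM. PGR was at 0.07 FPKM or less and ESR1 at 0.74 to 1.08 FPKM in all 6 libraries. Fibroblast markers, of which 6 of 7 are listed, summed to 2.30 to 3.04 FPKM in 231-BR and 0.33 to 0.44 FPKM in MDA-MB-231 libraries. Most of this sum was ACTA2, with means of 2.35 and 0.35 FPKM, while LUM, THY1 and FAP stayed at 0.02 FPKM or less in every library. PDGFRA was at 0.24 to 0.26 FPKM in 231-BR and listed at 0 in MDA-MB-231 libraries. PDGFRB was at 0.03 to 0.05 FPKM in 231-BR and 0.04 to 0.06 FPKM in MDA-MB-231 libraries. Endothelial markers (3 of 3 listed) summed to 0.41 to 0.50 FPKM in 231-BR and 0.20 to 0.22 FPKM in MDA-MB-231 libraries. Most of this was PECAM1 (log2 fold change 0.88, adjusted p = 0.00066), while CDH5 and VWF stayed at 0.03 FPKM or less. Leukocyte markers (2 of 2 listed) summed to 0.09 to 0.28 against 0.03 to 0.05 FPKM, and the glial marker listed (1 of 2) was at 0.07 FPKM or less. The part of other cells in the results was not tested.

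To compare the lines, log2(FPKM + 0.1) was tested with limma for the 13465 genes with a mean of at least 0.1 FPKM over the 6 libraries, with Benjamini-Hochberg adjustment of p over all of them. A gene was taken as changed when its adjusted p was under 0.05 and its absolute log2 fold change, 231-BR against MDA-MB-231, over 1. Folds given for means are ratios of mean FPKM, while log2 fold changes include the added 0.1 and are smaller for low genes. An exact permutation test of 3 libraries against 3 gives no p below 0.1 for any gene. Nothing in the labels says that the libraries came from cultures kept apart over time, so the p-values measure the spread between these libraries.

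The collagen genes changed in both directions, and the set of types that was most expressed differed between the lines. Of the 41 chains, 21 reached the expression needed for the test, and 13 of these changed: 6 rose and 7 fell in 231-BR cells. COL4A6, COL6A3 and COL9A3 reached the test only through the line where they were higher, with means under 0.1 FPKM in the other line. Over all genes tested, 15.2% changed, 10.9% with higher and 4.34% with lower values. An adjusted p under 0.05 alone was reached by 19 of the 21 chains, against 77.3% of all genes. The values of the lines lay apart in 19 of the 21 chains, against 78.4% of all genes tested. In 9 chains every 231-BR library was higher (44.9% of all genes) and in 10 every one was lower (33.5% of all genes). The log2 fold changes ran from -5.21 for COL7A1 to 3.32 for COL9A3, with a median of -0.02, where the median of all genes tested was 0.08. The median absolute log2 fold change was 1.18 for the chains and 0.38 for all genes. In bulk RNA of this kind, fewer cells that express a gene and less RNA per cell cannot be told apart.

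**Figure D1:**
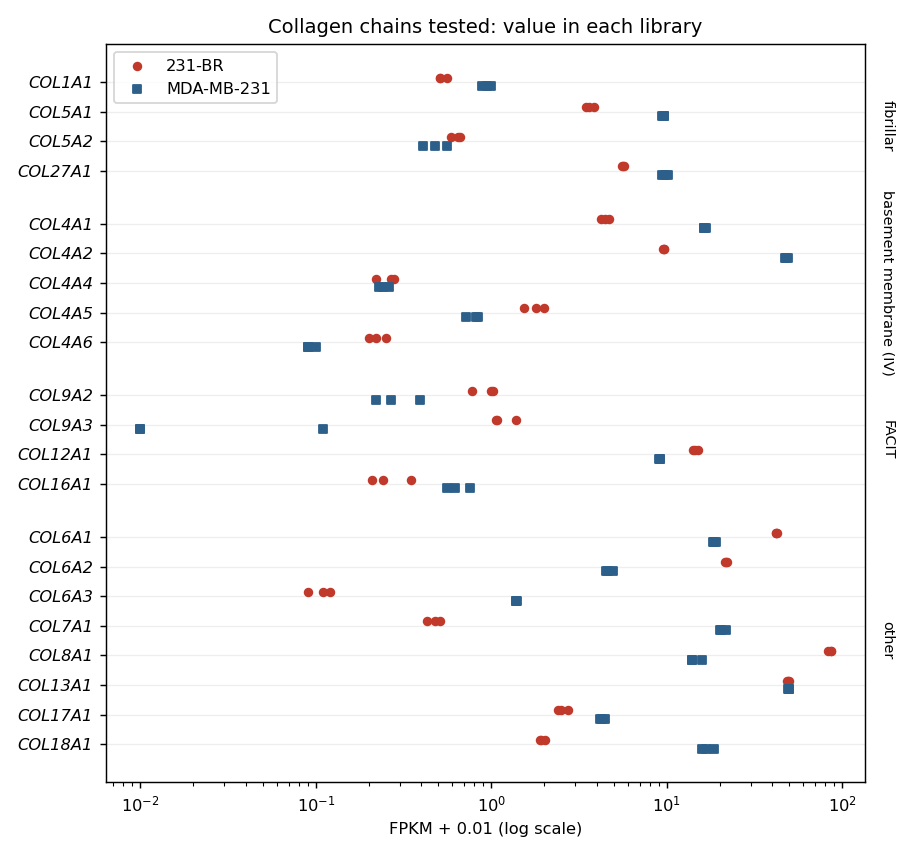
FPKM + 0.01 on a log axis for the 21 collagen chains tested, grouped by class. Circles are the 3 libraries of 231-BR cells and squares the 3 libraries of MDA-MB-231 cells. The points of the lines lie apart for 19 chains and overlap for COL4A4 and COL13A1.

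**Figure D2:**
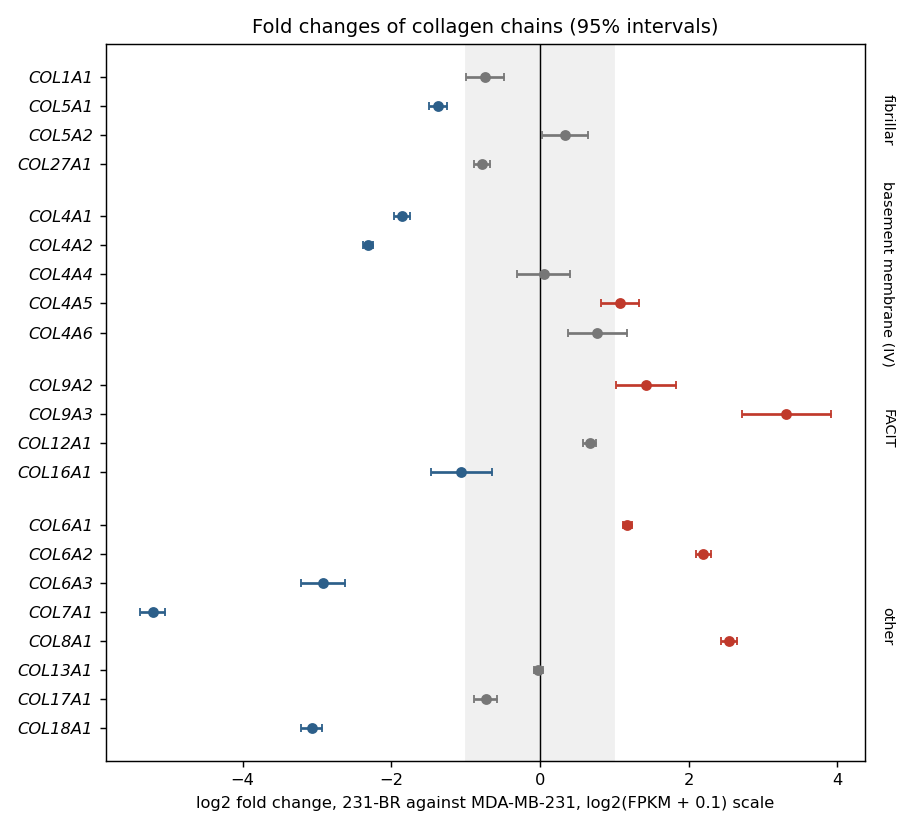
Log2 fold changes of the same 21 chains with 95% intervals from limma. Red chains rose and blue chains fell past the criteria, grey chains did not pass, and the shaded band marks an absolute log2 fold change of 1 or less. COL7A1 lies farthest to the left at -5.21 and COL9A3 farthest to the right at 3.32.

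The summed FPKM of all 41 chains was 246 ± 2.34 FPKM (SD, n = 3) in 231-BR cells against 227 ± 0.496 FPKM (SD, n = 3) in the parental line. Every 231-BR library was higher. As a share of the summed FPKM of all genes it was 0.0517% to 0.0534% against 0.0459% to 0.0466%. FPKM is scaled by transcript length, so levels of different chains can be set side by side. The order of levels in 231-BR cells was COL8A1, COL13A1, COL6A1, COL6A2 and COL12A1. For MDA-MB-231 cells the order was COL13A1, COL4A2, COL7A1, COL6A1 and COL18A1, and COL8A1 held rank 7. Neighbours in this order were apart in every library of 231-BR cells. In MDA-MB-231 cells COL18A1 (15.9 to 18.5 FPKM) overlapped COL6A1 (18.23 to 18.98 FPKM) and COL4A1 (16.2 to 16.7 FPKM). Type VIII made up 34.1% to 34.7% of the collagen sum in the 231-BR libraries and 6.09% to 6.97% in the MDA-MB-231 libraries. Type VI made up 25.7% to 26.2% against 10.7% to 10.9%. Conversely, type IV made up 6.53% to 6.69% in 231-BR libraries against 28.6% to 29.1%, type VII 0.172% to 0.202% against 8.87% to 9.60%, and type XVIII 0.765% to 0.809% against 7.01% to 8.13%. Fibrillar chains held a small share in both lines, 4.21% to 4.39% and 8.85% to 9.41%.

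**Figure D3:**
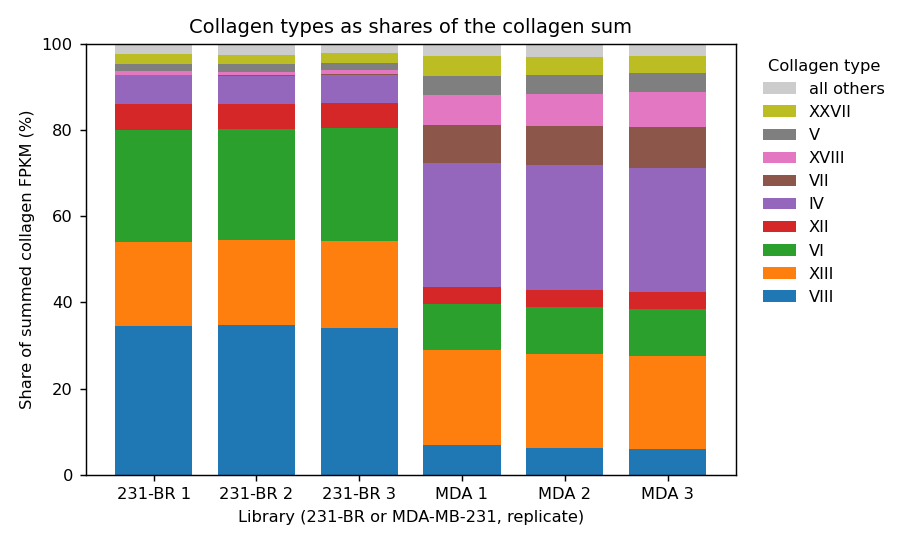
Stacked bars of 9 collagen types, and of all others in grey, as percentages of the summed FPKM of all 41 chains, 1 bar per library. Type VIII takes 34.1% to 34.7% in the 231-BR bars and 6.09% to 6.97% in the MDA-MB-231 bars (labelled MDA), and type IV takes 6.53% to 6.69% and 28.6% to 29.1%.

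Type IV collagen showed opposite movement within the family. Its chains assemble as 2 common chains (COL4A1 and COL4A2), found in nearly every basement membrane, or as combinations of COL4A3 to COL4A6 in a few tissues such as kidney. COL4A1 and COL4A2 both fell in 231-BR cells and COL4A5 rose. COL4A2 was at 9.48, 9.69 and 9.57 FPKM in 231-BR replicates 1 to 3 and at 47.4, 48.9 and 47.7 FPKM in the MDA-MB-231 replicates. It was 5.01-fold lower in 231-BR cells, with no overlap between the lines (log2 fold change -2.31, standard error 0.030, adjusted p = 7.5e-12 from limma). COL4A1 was at 4.70, 4.22 and 4.42 FPKM against 16.7, 16.2 and 16.3 FPKM. Every 231-BR library was lower, by 3.69-fold in the means (log2 fold change -1.86, standard error 0.049, adjusted p = 4.2e-10). The fall of COL4A2 was the deeper of the pair, and the FPKM of COL4A2 was 2.02 to 2.30 times that of COL4A1 in the 231-BR libraries and 2.85 to 3.02 times in the MDA-MB-231 libraries. The 2 genes lie head to head on chromosome 13 (GRCh38, COL4A1 at 110148963 to 110307233 on the minus strand and COL4A2 at 110305812 to 110513209 on the plus strand, in GENCODE release 29, whose outermost transcripts overlap). Of the 40 expressed genes around them the median log2 fold change was -0.49 for both positions. Each of the pair counts among the neighbours of the other, and the part of the neighbourhood in the result was not tested. The antisense genes COL4A2-AS1 and COL4A2-AS2 overlap exons of COL4A2, and their reads cannot be told apart from those of COL4A2 if strand was not kept.

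COL4A5 was at 1.99, 1.79 and 1.53 FPKM in 231-BR and 0.71, 0.81 and 0.83 FPKM in MDA-MB-231 libraries. All 231-BR values were above all others, by 2.26-fold in the means (log2 fold change 1.08, standard error 0.117, adjusted p = 1.3e-05). This call lay near the fold criterion, and it no longer passed without 231-BR replicate 1 (0.99), at a pseudocount of 1 (0.63) or after quantile normalization (0.66). COL4A6, the partner of COL4A5 on chromosome X, was at 0.19, 0.21 and 0.24 FPKM against 0.09, 0.08 and 0.08 FPKM. It reached the test through the 231-BR libraries alone. Its libraries did not overlap, but the difference was short of the fold criterion (log2 fold change 0.77, standard error 0.176, adjusted p = 0.0025). The 40 expressed genes around each of this pair had a median log2 fold change of 0.64, with single genes from -1.26 to 7.52. Those around COL4A6 include COL4A5, and the part of the neighbourhood was not tested. The FPKM of COL4A5 was 0.346 to 0.424 times that of COL4A1 in 231-BR and 0.0426 to 0.0509 times in MDA-MB-231 libraries. COL4A4 did not pass the test, with 0.21 to 0.27 FPKM in 231-BR and 0.22 to 0.25 FPKM in MDA-MB-231 cells (log2 fold change 0.05, 95% interval -0.30 to 0.41). COL4A3, its head-to-head partner, stayed at 0.02 FPKM or less in every library and was not tested.

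Each of the 3 pairs of type IV genes is transcribed outward from a shared stretch, and these stretches are shown because COL4A1 and COL4A2 fell while COL4A5, of another pair, rose. The sequences are the part upstream of both RefSeq starts that the promoter windows of the 2 genes share (GRCh38.p14, plus strand). They were read from chr13:110307158-110307283 for COL4A1 and COL4A2, from chrX:108439588-108439708 for COL4A6 and COL4A5, and from chr2:227164374-227164455 for COL4A4 and COL4A3. Capitals mark matches on either strand to the CCAAT box (CCAAT), the core of the GC box (GGGCGG) or the TATA box (TATAAA), and no match overlaps another.
COL4A1/COL4A2: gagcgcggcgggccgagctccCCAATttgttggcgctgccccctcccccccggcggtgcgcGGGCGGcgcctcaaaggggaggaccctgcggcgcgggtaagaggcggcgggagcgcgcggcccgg
COL4A6/COL4A5: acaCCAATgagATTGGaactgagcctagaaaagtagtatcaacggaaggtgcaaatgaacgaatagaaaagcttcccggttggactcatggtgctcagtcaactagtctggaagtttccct
COL4A4/COL4A3: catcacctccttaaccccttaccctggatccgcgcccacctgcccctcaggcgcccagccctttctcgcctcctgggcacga

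The COL4A1/COL4A2 stretch is the whole gap of 126 bases between the starts. It is 80.2% G and C, with 1 match to CCAAT and 1 to GGGCGG. Among the 126 bases before the start of all 35116 RefSeq promoters, 21.1% held CCAAT, 34.6% held GGGCGG and the median G and C content was 60.3%. The COL4A6/COL4A5 stretch covers 121 of the 379 bases between its starts, is 44.6% G and C, and has 2 matches to CCAAT facing each other and none to GGGCGG, which 20.6% and 34.1% of windows of that length held. The COL4A4/COL4A3 stretch covers 82 of 418 bases, is 67.1% G and C, and has no match to either motif, which 15.1% and 28.2% of windows of 82 bases held. TATAAA was in none of the 3 stretches, and in 4.42% to 5.87% of windows of these lengths. These matches describe the letters only.

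Chains that anchor or lie in basement membranes were among the deepest falls. COL7A1, the single chain of the anchoring fibrils that tie the basement membrane of skin to the tissue below, was at 0.47, 0.50 and 0.42 FPKM in 231-BR and at 20.1, 20.4 and 21.9 FPKM in MDA-MB-231 libraries. It was the third most expressed collagen of MDA-MB-231 cells and under 1 FPKM in every 231-BR library. The means differed 44.9-fold (log2 fold change -5.21, standard error 0.074, adjusted p = 1.0e-11). The 40 expressed genes around COL7A1 on chromosome 3 had a median log2 fold change of 0.01. COL18A1, a proteoglycan collagen of basement membranes whose C-terminal fragment is endostatin, was at 2.01, 1.89 and 1.91 FPKM against 15.9, 16.8 and 18.5 FPKM. The lines did not overlap, and the means differed 8.82-fold (log2 fold change -3.07, standard error 0.064, adjusted p = 9.1e-11). COL15A1, the other member of this subclass, stayed at 0.07 FPKM or less in every library. COL17A1, a membrane collagen of hemidesmosomes, was at 2.38 to 2.74 FPKM in 231-BR and 4.14 to 4.42 FPKM in MDA-MB-231 cells. It was lower in every 231-BR library, by less than the fold criterion (log2 fold change -0.73, standard error 0.071, adjusted p = 5.4e-06).

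Type VI collagen, which forms beaded filaments, is classically assembled from COL6A1, COL6A2 and COL6A3. In 231-BR cells COL6A1 and COL6A2 rose and COL6A3 fell. COL6A1 was at 42.4, 41.9 and 41.9 FPKM in 231-BR and 18.23, 18.45 and 18.98 FPKM in MDA-MB-231 libraries, 2.27-fold higher in 231-BR cells (log2 fold change 1.18, standard error 0.029, adjusted p = 2.6e-10). COL6A2 was at 22.03, 21.40 and 21.85 FPKM against 4.61, 4.93 and 4.48 FPKM. It was 4.66-fold higher (log2 fold change 2.20, standard error 0.046, adjusted p = 8.9e-11). COL6A3 was at 0.11, 0.10 and 0.08 FPKM in 231-BR and 1.38, 1.39 and 1.38 FPKM in MDA-MB-231 libraries. It reached the test through the MDA-MB-231 libraries alone. Its means differed 14.3-fold, with all 231-BR libraries lower (log2 fold change -2.92, standard error 0.130, adjusted p = 1.7e-08). The fitted size depends on the pseudocount at such levels, with -1.12 at a pseudocount of 1 and -3.72 at 0.01. COL6A1 was thus 386 to 524 times as high as COL6A3 in the 231-BR libraries and 13.2 to 13.8 times as high in the MDA-MB-231 libraries, while COL6A1 was 1.92 to 1.96 and 3.74 to 4.24 times as high as COL6A2. The 231-BR values of COL6A3 have 1 or 2 significant digits, and ratios to them are coarse. COL6A5 and COL6A6, which can take the place of COL6A3, were at 0.01 FPKM or less in every library.

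COL18A1, COL6A1 and COL6A2 are neighbours on chromosome 21. The starts of COL18A1 (GRCh38, 45405137 to 45513720, plus strand) and COL6A1 (45981737 to 46005050, plus strand) are 577 kb apart, and that of COL6A2 (46098097 to 46132849, plus strand) lies 116 kb farther on. Of the other genes that start between them PCBP3 was tested, and it had a log2 fold change of 0.96. SLC19A1, whose exons overlap COL18A1 on the other strand, was at 0.08 FPKM or less in every library. The tested neighbours within 1000 kb outside the 3 genes had log2 fold changes from -0.47 to 0.83, none of them past the criteria. The median over the expressed genes around each of the 3 positions was between -0.03 and -0.01.

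**Figure D4:**
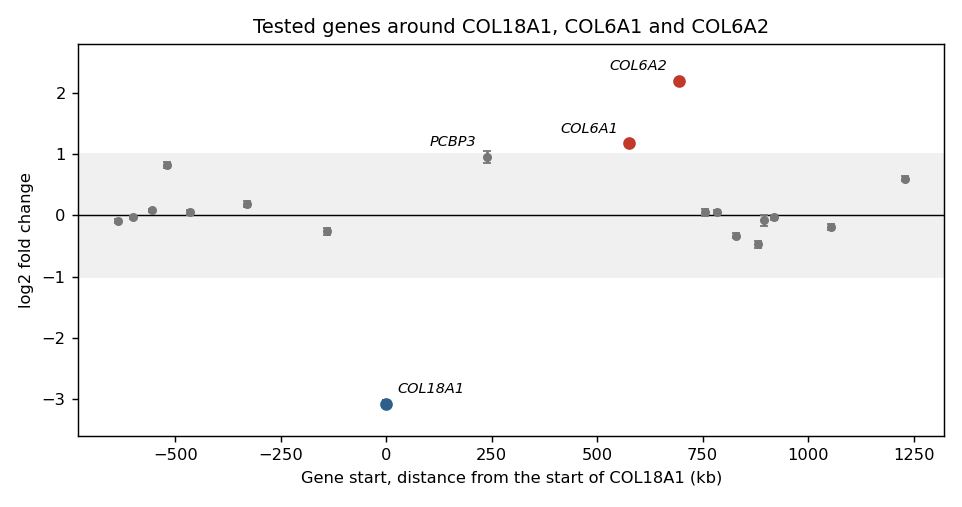
Log2 fold change with standard error of each tested gene against the distance of its start from the start of COL18A1, from 1000 kb before COL18A1 to 1000 kb after COL6A2. COL18A1 lies at -3.07, COL6A1 at 1.18 and COL6A2 at 2.20, and the other genes (grey) lie inside the shaded band of an absolute log2 fold change of 1 or less.

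COL8A1, a chain of the short-chain network that lies under endothelium and in vessel walls, had the largest rise in FPKM of all chains. It was at 86.0, 85.8 and 83.1 FPKM in 231-BR and 15.8, 13.9 and 13.9 FPKM in MDA-MB-231 libraries. The lines were far apart, by 5.84-fold in the means (log2 fold change 2.54, standard error 0.048, adjusted p = 5.4e-11). The endothelial marker PECAM1 was also higher in 231-BR cells, at 0.37 to 0.48 against 0.15 to 0.21 FPKM, with CDH5 and VWF near 0 in both lines. COL8A2, the other chain of type VIII, stayed at 0.03 FPKM or less in every library. Without COL8A1 the summed FPKM of the collagens was 162 ± 0.865 FPKM (SD, n = 3) in 231-BR cells against 213 ± 1.60 FPKM (SD, n = 3), the reverse of the order with it.

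COL13A1, a transmembrane collagen of cell adhesion sites, was the most expressed chain of MDA-MB-231 cells and ranked behind COL8A1 alone in 231-BR cells. It was at 48.2, 48.9 and 49.5 FPKM in 231-BR and 49.7, 49.9 and 49.0 FPKM in MDA-MB-231 libraries. The libraries overlapped, and the log2 fold change was -0.02 with a 95% interval of -0.07 to 0.04 (adjusted p = 0.48 from limma). Of the other transmembrane chains, COL17A1 is described above, and COL23A1 and COL25A1 stayed at 0.01 FPKM or less in every library.

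Except for COL5A1 and COL27A1, the fibrillar chains were under 1 FPKM in every library of both lines. Of the 9 chains 4 could be tested. By adjusted p alone 3 of them were lower and 1 was higher in 231-BR cells. Past the criteria 1 fell and none rose. Among all genes tested, 32.9% were lower and 44.4% higher by adjusted p alone, and 4.34% fell and 10.9% rose past the criteria. COL5A1, the main chain of type V, which limits the width of collagen fibrils, was at 3.85, 3.58 and 3.46 FPKM in 231-BR and 9.66, 9.60 and 9.36 FPKM in MDA-MB-231 libraries. It was 2.63-fold lower in 231-BR cells, with no overlap (log2 fold change -1.37, standard error 0.054, adjusted p = 7.8e-09). COL5A2, its usual partner, was at 0.58 to 0.65 FPKM against 0.40 to 0.55 FPKM. Its log2 fold change was of the other sign, at 0.34 (95% interval 0.03 to 0.65, adjusted p = 0.044), and short of the fold criterion. The ratio of COL5A1 to COL5A2 was 5.85 ± 0.694 in 231-BR and 20.5 ± 3.26 in MDA-MB-231 libraries (SD, n = 3 each). COL27A1, a fibrillar chain of cartilage, was at 5.57 to 5.69 FPKM against 9.36 to 10.2 FPKM. All 231-BR libraries were lower, by less than the fold criterion (log2 fold change -0.78, standard error 0.047, adjusted p = 1.5e-07).

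The chains of type I, the main collagen of bone, tendon and stroma, were under 1 FPKM in every library. COL1A1 was at 0.55, 0.50 and 0.50 FPKM in 231-BR and 0.88, 0.98 and 0.93 FPKM in MDA-MB-231 libraries, lower in every 231-BR library but short of the fold criterion (log2 fold change -0.74, standard error 0.111, adjusted p = 0.00015). COL1A2 was at 0.01 FPKM or less in all 6 libraries. COL3A1 (0.02 FPKM or less), which lies beside COL5A2 on chromosome 2, COL11A1, COL11A2 and COL24A1 were too low to be tested. The fibrillar chains COL2A1 and COL5A3 are not listed.

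Of the 9 FACIT chains 4 were tested, of which 2 rose and 1 fell in 231-BR cells. Past the same criteria, 10.9% of all genes tested rose and 4.34% fell. COL9A3, a chain of the type IX collagen of cartilage, was at 1.07, 1.37 and 1.05 FPKM in 231-BR libraries and is listed at 0, 0 and 0.10 FPKM in MDA-MB-231 libraries. It rose (log2 fold change 3.32, standard error 0.267, adjusted p = 1.3e-06), by a size that depends on the pseudocount, with 1.06 at a pseudocount of 1 and 5.71 at 0.01. Its exons overlap TCFL5 on the other strand, which was at 23.4 to 26.5 FPKM in the 6 libraries with a log2 fold change of 0.08, and reads of the pair cannot be told apart if strand was not kept. COL9A2 was at 0.98, 1.01 and 0.77 FPKM against 0.26, 0.38 and 0.21 FPKM, so that it was higher in every 231-BR library (log2 fold change 1.43, standard error 0.182, adjusted p = 4.3e-05). At a pseudocount of 1 its log2 fold change was 0.58 and no longer passed. Both type IX chains listed were thus higher in 231-BR cells, at levels near or under 1 FPKM, and COL9A1 is not listed.

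COL12A1, a large chain found on type I fibrils, was the most expressed of the class. It was at 14.98, 14.42 and 14.12 FPKM in 231-BR and 9.14, 8.98 and 9.15 FPKM in MDA-MB-231 libraries, with all 231-BR libraries higher but by less than the fold criterion (log2 fold change 0.67, standard error 0.039, adjusted p = 1.1e-07). COL16A1 was at 0.23, 0.34 and 0.20 FPKM against 0.75, 0.61 and 0.55 FPKM. It fell in 231-BR cells (log2 fold change -1.06, standard error 0.181, adjusted p = 0.00037). The call was lost when 231-BR replicate 3 was left out (-0.94) and when MDA-MB-231 replicate 1 was left out (-0.95), and at a pseudocount of 1 (-0.38). The antisense gene AC114488.2, which is not listed, overlaps exons of COL16A1. Reads of these genes cannot be told apart if strand was not kept.

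The 20 chains that were not tested had no value above 0.15 FPKM in any library, and 17 of them stayed at 0.05 FPKM or less throughout. The other 3 were COL11A2, COL15A1 and COL19A1. They were left out of the test by their low mean, and at 2 decimals their values are coarse. In 5 of them the libraries of one line lay apart from those of the other: COL14A1, COL15A1 and COL19A1 were lower and COL21A1 and COL28A1 higher in every 231-BR library. Over all genes tested the lines lay apart in 78.4%, and no share was taken over the genes not tested. COL28A1 was at 0.01 FPKM in every 231-BR and 0 in every MDA-MB-231 library, a single step of the rounding. COL19A1, for example, was at 0.02 to 0.04 FPKM against 0.07 to 0.13 FPKM. They include the chains that mark cartilage growth plates (COL10A1), fibril-forming stroma (COL1A2 and COL3A1) and tendon (COL14A1).

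Genes that make, bind or degrade collagen were examined with 6 lists written from general knowledge. In the list of chain modification and folding, 23 of 24 genes were tested, of which 4 rose and 1 fell, and the median log2 fold change was 0.15. These are 4 and 1 of 23 genes, beside 10.9% higher and 4.34% lower over all genes tested. FKBP10, a folding enzyme of the endoplasmic reticulum on which lysyl hydroxylation of collagen depends and a gene that the study picked from these libraries, was 17.5-fold higher in 231-BR cells (36.5 ± 1.24 against 2.08 ± 0.200 FPKM, SD, n = 3 each, log2 fold change 4.07, adjusted p = 1.9e-11). COLGALT2, which adds galactose to hydroxylysine, was at 3.76, 3.93 and 3.98 FPKM against 0.56, 0.57 and 0.60 FPKM (log2 fold change 2.56, adjusted p = 1.7e-09). The other genes that rose were P3H4, with 2.16, and PLOD2, the lysyl hydroxylase of telopeptides, with 1.18. SPARC, a collagen-binding matrix protein, fell with -1.47 at a mean under 1 FPKM in both lines, and did not pass at a pseudocount of 1 (-0.50). P3H4, PLOD2 and SPARC were named after their values were seen.

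For procollagen processing and crosslinking, 11 of 15 genes were tested, of which 4 rose and 1 fell, and the median log2 fold change was 0.86 (over all genes 10.9% rose, 4.34% fell and the median was 0.08). All 4 that rose were lysyl oxidases, the enzymes that start crosslinks between collagen chains. LOXL1 was at 7.26, 6.76 and 7.49 FPKM in 231-BR and 1.33, 1.16 and 1.35 FPKM in MDA-MB-231 libraries (log2 fold change 2.40, adjusted p = 1.9e-09). LOXL4 was at 1.38 to 1.48 FPKM against 0.33 to 0.41 FPKM (1.72, adjusted p = 3.3e-07). LOX had a log2 fold change of 1.63 and LOXL3 one of 1.07, both named after their values were seen. At a pseudocount of 1, LOXL4 (0.83) and LOXL3 (0.71) no longer passed, nor did LOXL3 after quantile normalization (0.70). LOXL2, the most expressed of the family and likewise named after its values were seen, was at 55.2 to 56.7 FPKM in 231-BR and 90.7 to 94.7 FPKM in MDA-MB-231 libraries, lower by less than the fold criterion (-0.73, adjusted p = 3.7e-09). TGM2, a transglutaminase that crosslinks matrix proteins by another reaction, was at 0.36, 0.32 and 0.38 FPKM against 142, 142 and 137 FPKM, 397-fold lower in 231-BR cells (log2 fold change -8.28, adjusted p = 1.5e-13).

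Collagen-binding receptors were mostly lower in 231-BR cells by less than the fold criterion. Of 13 genes 11 were tested, of which 1 rose and 1 fell past the criteria (10.9% and 4.34% over all genes), while 2 were higher and 7 lower at an adjusted p under 0.05 alone. By adjusted p alone, 44.4% of all genes were higher and 32.9% lower. The median log2 fold change of the list was -0.47. ADGRG1, an adhesion receptor that binds type III collagen in the developing brain, was at 12.1, 12.8 and 12.4 FPKM against 44.2, 44.9 and 44.9 FPKM (log2 fold change -1.84, adjusted p = 3.3e-11). OSCAR, a collagen receptor first known from osteoclasts, was at 1.21 to 1.31 FPKM against 0.28 to 0.43 FPKM (1.62, adjusted p = 2.3e-06, and 0.75 at a pseudocount of 1, which does not pass).

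Among collagen-degrading proteases 9 of 11 genes were tested and 2 rose, with a median log2 fold change of -0.10 (10.9% of all genes rose). MMP1, the interstitial collagenase that cuts fibrillar collagens and was picked by the study from these libraries, was 45.6-fold higher in 231-BR cells (1962 ± 37.0 against 43.0 ± 0.722 FPKM, SD, n = 3 each, adjusted p = 3.2e-15). MMP13, another collagenase, had 0.39 against 0.117 FPKM and a log2 fold change of 1.18, was named after its value was seen, and did not pass at a pseudocount of 1 (0.32) or after quantile normalization (0.82). Of the fibril-associated proteoglycans and organisers 9 of 14 genes have a row and 3 were tested, of which 1 rose (10.9% over all genes), with a median log2 fold change of -0.02. FN1, fibronectin, also picked by the study, rose from 7.54 to 8.07 FPKM in MDA-MB-231 to 20.1 to 20.5 FPKM in 231-BR libraries (1.36, adjusted p = 7.7e-10).

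In the list of basement membrane partners 11 of 15 genes were tested, of which 2 rose and 2 fell (10.9% and 4.34% over all genes), and the median log2 fold change was -0.24. LAMA4, the laminin chain of vessel and muscle basement membranes, was at 8.24, 8.48 and 8.51 FPKM in 231-BR and 0.30, 0.19 and 0.30 FPKM in MDA-MB-231 libraries, 31.9-fold higher (log2 fold change 4.57, standard error 0.126, adjusted p = 6.1e-10), with 2.90 at a pseudocount of 1. Of the endothelial markers, PECAM1 was higher at the low levels given above and short of the fold criterion (0.88). CDH5 and VWF stayed at 0.03 FPKM or less in every library. LAMC1, a chain shared by most laminins, was at 58.2, 56.9 and 57.5 FPKM against 29.13, 29.04 and 27.32 FPKM (1.01, adjusted p = 1.4e-09). This call sat at the fold criterion and was lost without MDA-MB-231 replicate 3 (0.98), with median-of-ratios scaling (0.95), with quantile normalization (0.99) and with a pseudocount of 1 (0.99). LAMA5, the laminin chain of many epithelial and vessel basement membranes, was at 7.08, 7.41 and 6.65 FPKM against 27.4, 27.2 and 27.4 FPKM, with every 231-BR library lower (-1.94, adjusted p = 1.5e-10). AGRN, a heparan sulfate proteoglycan of basement membranes, was at 17.6 to 18.8 FPKM against 48.8 to 51.1 FPKM (-1.45, adjusted p = 2.0e-10). The 4 changed partners of type IV collagen thus moved in both directions, as the type IV chains did.

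**Figure D5:**
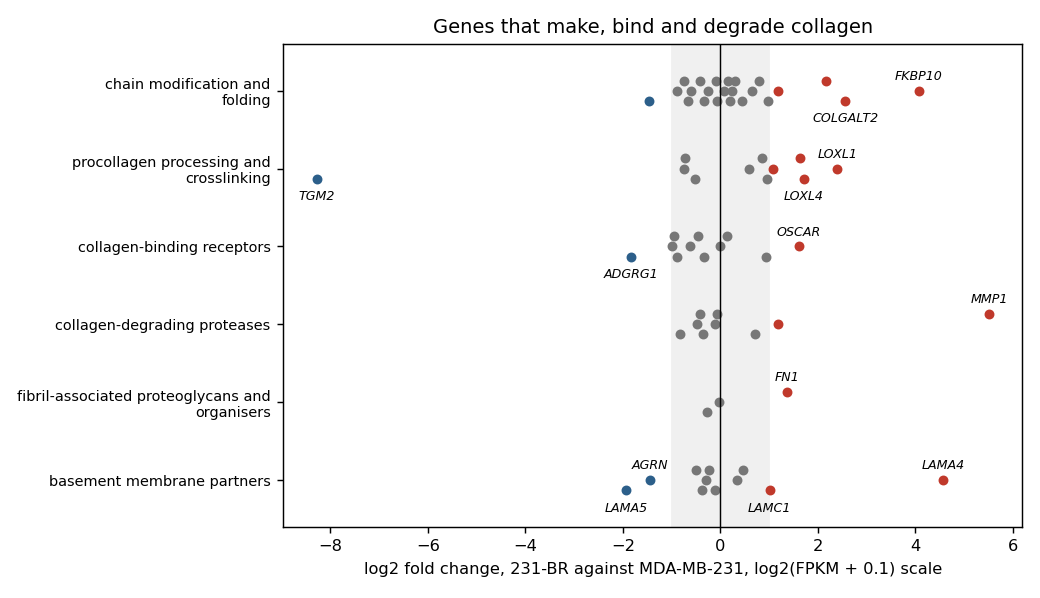
Log2 fold changes of the tested genes of 6 lists, 1 row of points per list. Red genes rose and blue genes fell past the criteria, grey genes did not pass, and names mark the 2 largest changes in each direction with a mean of at least 1 FPKM in either line. TGM2 lies at -8.28, MMP1 at 5.51 and LAMA4 at 4.57.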

How the data were processed

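The authors sequenced poly(A) RNA of 231-BR and MDA-MB-231 cells (3 libraries each) on BGISEQ-500 as paired reads of 100 bases, filtered them with SOAPnuke, and aligned them with HISAT2 2.0.4 and Bowtie2 2.2.5, with GRCh38.p12 named as the build in the submitters' processing notes. The deposited values are FPKM per gene, computed by the authors with 2 decimals. The program is not given in the sources used here. The 6 files of single samples were identical to the columns of the series table, which was used. Read counts were not used, so the study's count test was replaced by limma. Whether strand was kept is not stated.

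The lines were compared by limma 3.58.1 (lmFit, eBayes with trend) in R 4.3.3, on log2(FPKM + 0.1) over genes with a mean of at least 0.1 FPKM. The fit was tested on simulated data. Python 3.11.15 with pandas 2.3.3 gave the tables, and matplotlib 3.10.9 the figures. Classes followed the collagen number. Chains with a mean of at least 1 FPKM in either line or past the criteria were described singly, the chains that assemble or lie together were set side by side, and 2 genes per list and direction were named. Members and lists were chosen with earlier results of these data known. Positions came from GENCODE 29 (GRCh38), with neighbours taken as 20 genes of at least 1 FPKM on either side, fewer near a chromosome end, and promoter sequences from RefSeq (GRCh38.p14). Alternatives were other pseudocounts, filters, scalings, criteria, eBayes without trend, a replicate block and each library left out.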

Additional observations from a re-analysis of the deposited data

How the results depend on the processing

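Among the alternative values for single chains, 226 kept their direction and their side of the criteria, 7 no longer passed and 1 newly passed. Other filters, eBayes without trend and the replicate block leave the log2 fold change of a gene as it was. Under these settings the adjusted p alone could change, so part of the values could not change direction. Chains removed by the filter at 1 FPKM (COL6A3, COL9A2, COL9A3 and COL16A1) have no value there and are not counted as lost. COL4A5 missed the fold criterion at a pseudocount of 1 (0.63) and after quantile normalization (0.66), and COL9A2 (0.58) and COL16A1 (-0.38) at a pseudocount of 1, which shrinks low values by construction. Of the values for named partner genes, a set of alternatives added after seeing the data, 265 kept both and 11 no longer passed. COL17A1 passed after quantile normalization (-1.02). Quantile normalization moved the median of all genes from 0.08 to -0.06, and the share of higher values among calls from 71.5% to 52.8% over all genes and from 46.2% to 35.7% (5 higher and 9 lower) for the chains. The cause of the other changes was not tested.

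The chain median of -0.02, over 21 chains, became 0.046 over all 41 with no filter and -0.73 over the 13 left by a filter at 1 FPKM. Those medians are of other sets of chains. Over 21 chains the median was -0.083 with median-of-ratios scaling and -0.29 with quantile normalization. At a fold criterion of 1.5 on the log2 scale, 3 chains rose and 5 fell, beside 820 and 296 of 13465 genes tested. Type IV then had 0 higher, fibrillar chains 0 lower, and FACIT 1 higher and 0 lower. With at least 1 FPKM in both lines as well, 3 chains rose and 4 fell, beside 630 and 238 of all genes. Type IV then had 0 higher, FACIT 0 and 0, and the other types 1 lower. By adjusted p alone, 1 fibrillar chain was higher and 3 lower, and 2 type IV chains were higher. The same holds for 44.4% (higher) and 32.9% (lower) of all genes. Quantile normalization gave 2 fibrillar chains lower and 0 of type IV higher, beside 947 of all genes lower and 1061 higher. A pseudocount of 1 gave 0 type IV and 1 FACIT chain higher and 0 FACIT chains lower, beside 720 genes higher and 277 lower. One of 0.01 gave 2 type IV chains higher, beside 1653 genes higher and 692 lower. A filter at 1 FPKM left 0 FACIT chains in either direction. It removed COL9A2, COL9A3 and COL16A1 before the test, with means of 0.602, 0.598 and 0.447 FPKM over the libraries. Leaving out 1 library gave 0 to 1 type IV chain higher and 0 to 1 FACIT chain lower.

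Among the lists, by adjusted p alone 20 of 23 genes of modification, 11 of 11 of crosslinking and 9 of 11 receptors passed. So did 6 of 9 proteases and 10 of 11 basement membrane partners, where 77.3% of all genes tested passed. At 1.5, 3 of modification, 1 protease, 0 fibril organisers and 2 basement membrane partners passed. With at least 1 FPKM in both lines, 3 of modification, 3 of crosslinking, 1 receptor and 1 protease passed. A pseudocount of 1 left 3 of crosslinking, 1 receptor and 1 protease. Receptors numbered 4 at a pseudocount of 0.01 and under either other scaling, and a filter at 1 FPKM left 1 receptor and 1 protease. Over all genes, 1360 rose and 645 fell with median-of-ratios scaling, and 949 and 345 of 11124 with that filter. Calls over all genes for the other settings are given above.

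The replicate numbers are shared by the lines, but same-numbered libraries did not deviate together, with correlations of 0.09, -0.04 and -0.11 over genes. With the replicate block 6 chains rose and 7 fell, as without it, and the calls over all genes were 1468 higher and 585 lower. Depth is unknown, and values under 1 FPKM are the least precise.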
